A study of Mus musculus with 6 samples.

Results

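The 38 genes described here are the listed glycolytic enzymes, glucose and lactate transporters, pyruvate dehydrogenase genes and genes linked to the hypoxia-inducible factor HIF, taken from the 35275 genes of the table by symbol. The list follows functions of the genes, and no threshold on a measured value was used to choose them, though it was drawn up with earlier results of these data known. Of the 38 genes, 37 had a mean of at least 0.5 FPKM over the 6 libraries and were tested, and Car9 was below that level. FPKM is the number of fragments per kilobase of gene length, scaled to the depth of the library.

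Messenger RNA was sequenced from the ovarian cancer line ID8-KMF, a mouse line of C57Bl6/J strain that was derived from ID8 cells by passage in animals. All 6 libraries came from Rgnef-/- cells, which lack the guanine nucleotide exchange factor Rgnef (gene Arhgef28), growing below confluence on Matrigel-seeded dishes. In 3 of them the cells had been given GFP-Rgnef by lentivirus, so this group carries the deletion, the virus and the tag together. The other 3 came from Rgnef-/- cells without it, called knockout libraries here, and cells with an intact Rgnef gene were not analysed here. The labels do not say whether replicates are separate cultures or clones, so each p-value reflects how far these particular libraries differ, and that spread may be technical.

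Glycolysis splits glucose into pyruvate in the cytosol, with hexokinase, phosphofructokinase and pyruvate kinase as its regulated steps. Pyruvate is then either reduced to lactate by lactate dehydrogenase and exported by monocarboxylate transporters, or oxidised in mitochondria by the pyruvate dehydrogenase complex, which the PDK kinases switch off. HIF binds core motifs such as ACGTG, the only form counted here, and raises transcription of many of these genes. Its alpha subunit is marked for destruction by the EGLN prolyl hydroxylases when oxygen is present, and many tumour lines keep the pathway high in air.

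Depths implied by the FPKM steps were 15898965 to 17977069 reads per library. Arhgef28 had a mean of 52.7 ± 3.93 FPKM with GFP-Rgnef and 0.11 to 0.134 FPKM in the knockout libraries, as labelled. The second principal component (25.2% of the variance) set library 3 of each group against the remaining libraries, and the first (55.4%) separated the groups. Of 10 markers of ovarian surface epithelium and mesothelium, 7 were tested, while Krt7, Epcam and Pax8 were under the filter, and the summed level was 1657 to 2465 FPKM with GFP-Rgnef and 1548 to 2483 without, lowest in libraries 3 of both groups. Ptprc, the pan-leukocyte marker, was under 0.1 FPKM in every library, as were 7 of 8 immune, 4 of 6 endothelial and 4 of 5 adipocyte markers. Summed levels were 2.24 to 3.44 against 2.24 to 3.89 FPKM for immune, 95.7 to 108 against 85.9 to 146 for endothelial (nearly all of it Tek) and 0.167 to 0.185 against 0.611 to 1.38 for adipocyte markers. Of 8 fibroblast markers 1 (Lum) was under 0.1, and their sum was 53.3 to 73.3 against 42.1 to 50.8 FPKM. Of the 5 tested, Dcn was called higher (0.83, limma adjusted p = 0.0426), and Col1a1, Col3a1, Pdgfra and Col1a2 had negative differences (-1.20 to -0.44) without a call. Of the 7 tested markers of ovarian surface epithelium and mesothelium, only Krt18 was called, as higher (0.51, limma adjusted p = 0.00625). Without a call, Upk3b (-1.43), Krt8 (-0.13) and Wt1 (-0.07) had negative differences, and Cdh1 (0.48), Msln (0.20) and Krt19 (0.14) positive ones. Fabp4, the only adipocyte marker tested, was called lower (-0.73, limma adjusted p = 0.0218). With GFP-Rgnef the whole adipocyte list summed to at most 0.185 FPKM, near the floor. Fabp4 therefore passed the filter of 0.5 only through the knockout libraries, and its call is no separate support. The part of these levels in the results below was not tested.

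The set did not move as a block. All differences below are GFP-Rgnef minus knockout on the log2(FPKM + 1) scale, where the added 1 shrinks differences of weakly expressed genes, and a gene is called at a limma adjusted p below 0.05 over all 11500 genes tested. Higher with GFP-Rgnef were 4 of 37 tested members (10.8%, against 5.34% of all genes): the glucose transporter Slc2a1, the hexokinase Hk1, the triose phosphate dehydrogenase Gapdh and the prolyl hydroxylase Egln3. Lower were 5 (13.5%, against 8.04% of all genes): the lactate exporter Slc16a3, the enolase Eno2, the collagen prolyl hydroxylase subunit P4ha1, the phosphofructokinase Pfkp and the lactate dehydrogenase Ldha. Members higher were 1 without GFP-Rgnef 2 or without knockout 2 and 2 without knockout 3, and members lower were 3 without GFP-Rgnef 2 and 9 without GFP-Rgnef 3. At an unadjusted p under 0.05 in limma stood 17 members (45.9%, against 28.4% of all genes). The median difference over tested members was -0.04, against 0.02 over all genes, with 16 members positive and 21 negative. All 3 GFP-Rgnef libraries were above all 3 knockout libraries for 7 members (18.9%, against 16.7% of all genes), and all 3 were below for 10 (27.0%, against 16.7%). In bulk RNA, fewer cells of a type and less RNA per cell cannot be told apart.

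**Figure D1:**
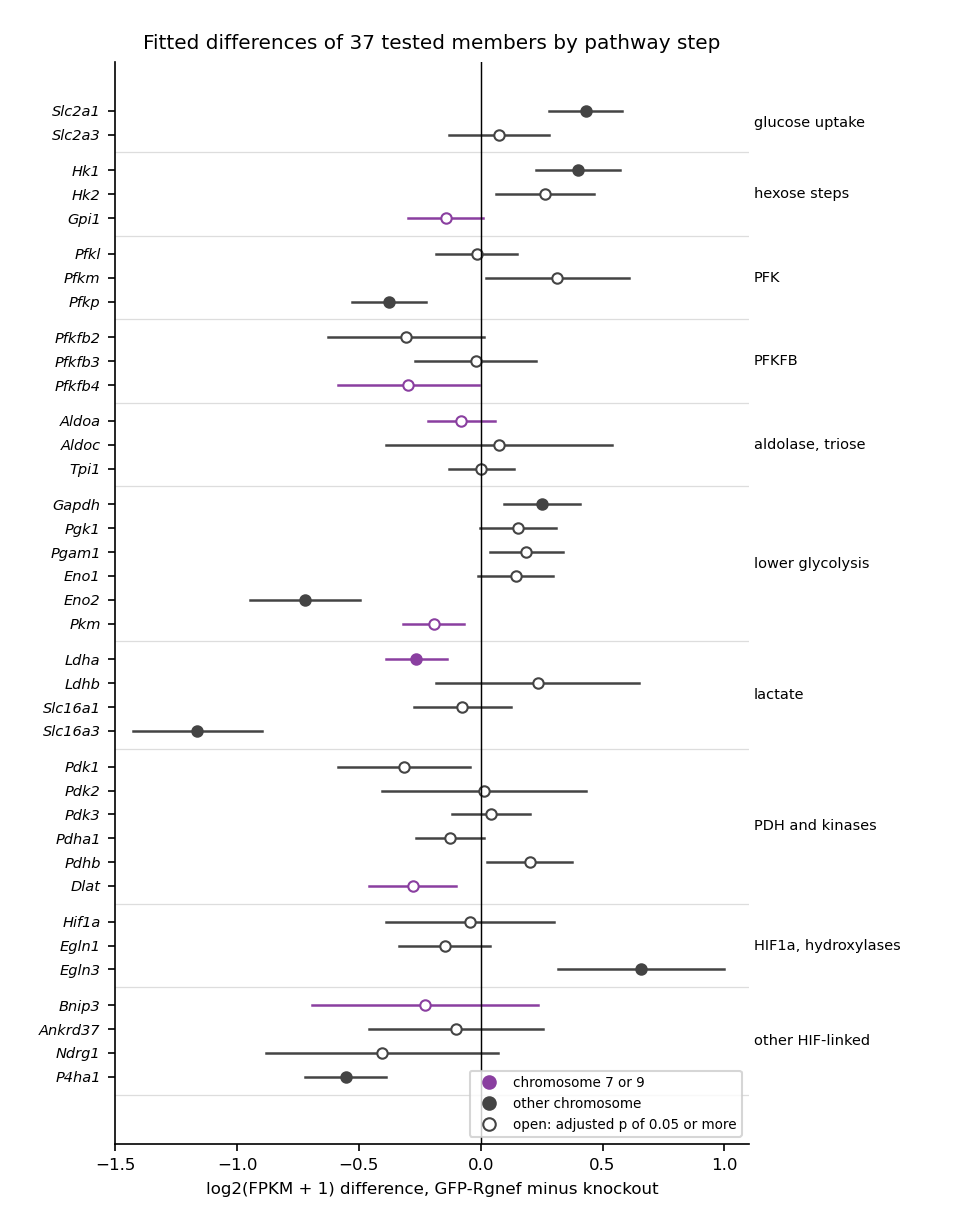
Fitted difference of each of the 37 tested members (x axis, log2(FPKM + 1), GFP-Rgnef minus knockout; points with 95% confidence intervals), grouped by step of the pathway. Filled points are the 9 called genes, purple marks chromosomes 7 and 9, and Slc16a3 at -1.16 and Egln3 at 0.66 are the extremes.

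Of the genes for glucose entry and its first phosphorylation, Slc2a1 and Hk1 were higher with GFP-Rgnef. Slc2a1 (ENSMUSG00000028645; GRCm38 chromosome 4, 119108711 to 119137983, plus strand), the basal glucose transporter GLUT1, stood at 70.7, 71.2 and 72.9 FPKM in GFP-Rgnef libraries 1 to 3 and at 56.1, 52.5 and 50.2 in knockout libraries 1 to 3. The groups did not overlap, and the lowest GFP-Rgnef library was well above the highest knockout library. The means were 71.6 ± 1.14 and 52.9 ± 2.97 FPKM (SD, n = 3), a difference of 0.43 (SE 0.065, limma adjusted p = 0.00551), which was called without each of the 6 libraries in turn. Slc2a3, the high-affinity transporter GLUT3, was lower in level, at 22.0 ± 2.35 and 20.7 ± 0.772 FPKM (SD, n = 3), with overlapping groups (0.07, limma adjusted p = 0.662). The sum of both transporters was 93.6 ± 3.48 against 73.7 ± 2.63 FPKM (SD, n = 3).

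Hk1 (ENSMUSG00000037012; chromosome 10, 62268855 to 62379908, minus strand), the hexokinase of most tissues, stood at 135, 147 and 137 FPKM with GFP-Rgnef and at 116, 102 and 99.8 without. All GFP-Rgnef libraries were higher, and knockout library 1 came nearest to them. The difference was 0.40 (SE 0.075, limma adjusted p = 0.0122), and the call was lost without GFP-Rgnef 2 or knockout 2 (adjusted p up to 0.0628). Hk2, the inducible hexokinase of many tumours, had 51.7, 57.5 and 53.7 FPKM with GFP-Rgnef and 46.9, 40.1 and 48.5 without. Its groups did not overlap either, but the difference of 0.26 was not called (limma adjusted p = 0.0869), and was called without the libraries numbered 3 (0.32, adjusted p = 0.0376). Both hexokinases together gave 194 ± 9.47 against 151 ± 10.4 FPKM (SD, n = 3). Gpi1, the isomerase that follows, was at 261 ± 11.0 and 288 ± 17.1 FPKM (SD, n = 3), with overlap (-0.14, limma adjusted p = 0.206).

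**Figure D2:**
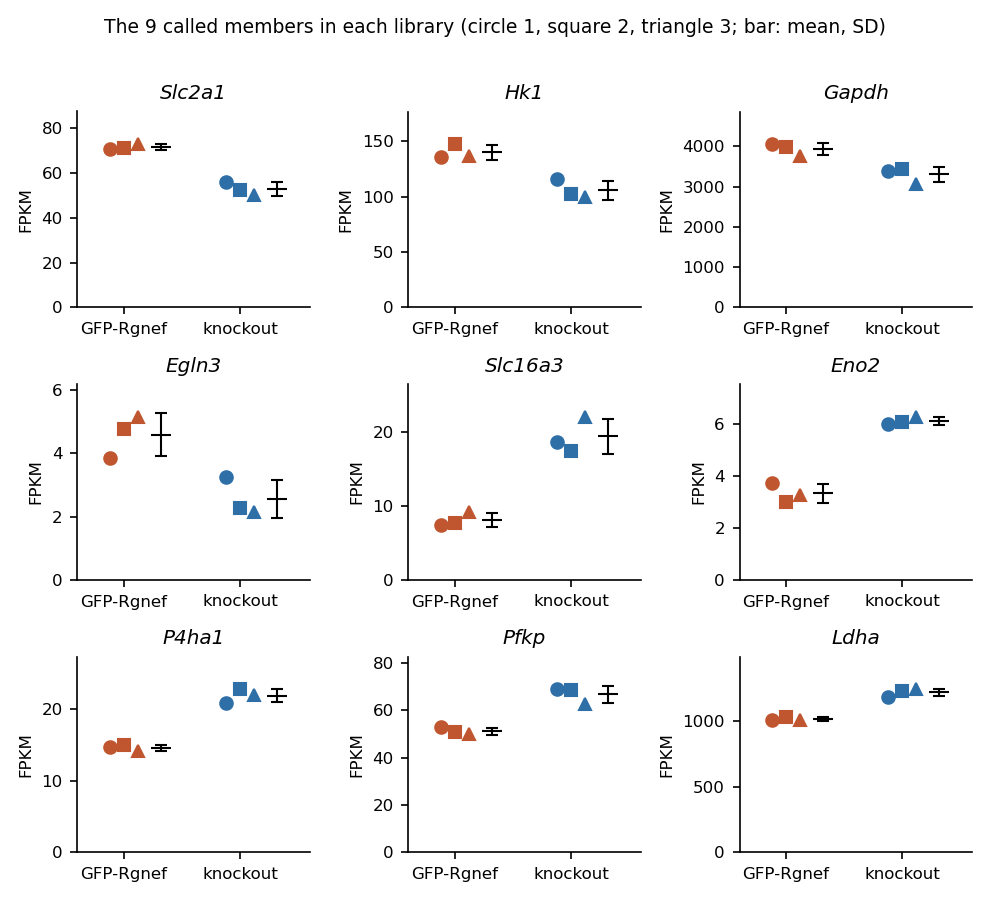
FPKM of the 9 called members in each library (y axis from 0; circle, square and triangle are libraries 1, 2 and 3; the bar is the mean with its SD, n = 3). No gene overlaps between the groups, and for Slc16a3 the knockout libraries at 17.4 to 22.1 FPKM stand above GFP-Rgnef libraries at 7.41 to 9.25.

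The phosphofructokinase genes did not move together. Pfkp (ENSMUSG00000021196; chromosome 13, 6579768 to 6648777, minus strand), the platelet-type subunit, stood at 52.8, 50.6 and 49.9 FPKM with GFP-Rgnef and at 68.9, 68.7 and 62.6 without. All GFP-Rgnef libraries were lower, and knockout library 3 was the lowest of its group. The difference was -0.38 (SE 0.067, limma adjusted p = 0.00961), and only leaving out GFP-Rgnef 2, of the 6 libraries, ended the call (adjusted p = 0.0513). Exons of Pfkp share 748 bases with Pitrm1 on the opposite strand, and without a stated strand such reads cannot be told apart. Pitrm1 was at 62.6 ± 4.77 and 68.3 ± 1.99 FPKM (SD, n = 3; limma adjusted p = 0.31). Pfkl, the liver-type subunit and the most abundant of the family, was at 115 ± 5.77 and 117 ± 8.19 FPKM (SD, n = 3; -0.02, 95% interval -0.18 to 0.15). Pfkm, the muscle type, stood at 15.2 ± 2.26 and 12.0 ± 1.46 FPKM (SD, n = 3), with overlap and no call (0.31, limma adjusted p = 0.149). The family sum, 182 ± 5.46 against 196 ± 11.0 FPKM (SD, n = 3), overlapped between the groups.

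The PFKFB genes encode the kinases and phosphatases that set the level of the activator of phosphofructokinase, and none of the 3 was called (limma adjusted p of 0.167 to 0.931). Pfkfb3, the isoform of proliferating cells, led them at 34.2 ± 3.90 and 34.6 ± 3.60 FPKM (SD, n = 3), lowest in library 3 of both groups. Pfkfb2 was at 2.76 ± 0.659 and 3.61 ± 0.294 FPKM (SD, n = 3), where GFP-Rgnef library 3 alone overlapped the knockout group, and without the libraries numbered 3 it was called lower (-0.49, limma adjusted p = 0.0239). Its exons also overlap Yod1. Pfkfb4 rested on 12 to 14 reads per GFP-Rgnef library and 20 to 26 per knockout library, with no overlap and a difference of -0.30 (limma adjusted p = 0.167).

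Aldolase and triose phosphate isomerase gave no call. Aldoa, the main aldolase, was at 815 ± 40.1 and 861 ± 8.63 FPKM (SD, n = 3; -0.08, limma adjusted p = 0.434), with all GFP-Rgnef libraries below the knockout libraries. Tpi1 was at 824 ± 35.7 and 822 ± 17.2 FPKM (SD, n = 3), a difference of 0.0031 with a 95% interval of -0.13 to 0.14. Aldoc, the brain-type aldolase, had 1.05 to 2.11 FPKM over all 6 libraries, with overlap.

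By mean level, genes of the lower steps and of aldolase and triose isomerase led the members. Gapdh ranked 4 by mean FPKM among 11500 genes, Eno1 21, Ldha 63, Pkm 67, Aldoa 106, Pgk1 108 and Tpi1 111. Gapdh (ENSMUSG00000057666; chromosome 6, 125161715 to 125166467, minus strand), which makes NADH from glyceraldehyde phosphate, stood at 4053, 3978 and 3754 FPKM with GFP-Rgnef and at 3398, 3430 and 3075 without. Library 3 was the lowest in each group, and the groups did not overlap. The difference of 0.25 (SE 0.068, limma adjusted p = 0.0458) is close to the threshold. Leaving out GFP-Rgnef 3 was the only omission of 1 library that kept the call (adjusted p = 0.0455 to 0.178 over the 6).

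The neighbouring steps had positive differences without a call. Pgk1, the phosphoglycerate kinase, was at 880 ± 47.8 and 791 ± 43.7 FPKM (SD, n = 3; 0.15, limma adjusted p = 0.188), and Pgam1, the mutase, at 391 ± 22.8 and 343 ± 13.6 (0.19, limma adjusted p = 0.10). Eno1, the general enolase, was at 2170 ± 132 and 1964 ± 72.7 FPKM (SD, n = 3; 0.14, limma adjusted p = 0.206). Of these, Pgam1 alone had no overlap between groups. Near-identical copies share sequence with such genes, and the table lists Pgk1-rs7 at 0.887 and 0.922 and Eno1b at 0.156 and 0.176 FPKM in the respective groups.

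Eno2 (ENSMUSG00000004267; chromosome 6, 124760053 to 124769673, minus strand), the neuron-type enolase and a known hypoxia-responsive gene, went the other way. It stood at 3.72, 3.02 and 3.27 FPKM with GFP-Rgnef (56 to 74 reads) and at 6.001, 6.10 and 6.29 without (123 to 126 reads). Each knockout library was well above the GFP-Rgnef libraries. The difference was -0.72 (SE 0.098, limma adjusted p = 0.00401), called without each library in turn, and the ratio of means was 1.84-fold in favour of the knockout. As a share of enolase FPKM, Eno2 was 0.153% ± 0.016 with GFP-Rgnef and 0.309% ± 0.0183 without (SD, n = 3), so Eno1 made nearly all enolase RNA in both groups.

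Pkm, pyruvate kinase, whose splice forms are not resolved in a table per gene, stood at 1003, 1003 and 996 FPKM with GFP-Rgnef and at 1172, 1107 and 1154 without. The groups did not overlap. The difference of -0.19 just missed the threshold (SE 0.054, limma adjusted p = 0.0521). It passed at a mean FPKM of at least 5, with TPM scaling and with voom (adjusted p of 0.0373 to 0.0455). It did not pass without a filter (limma adjusted p = 0.181) or without trend (0.108). Nor did it pass when any 1 library was left out (limma adjusted p of 0.0797 to 0.189). Pkm lies on chromosome 9, which is described further on.

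Of the genes that make and move lactate, Slc16a3 and Ldha were lower with GFP-Rgnef. Slc16a3 (ENSMUSG00000025161; chromosome 11, 120948480 to 120960868, plus strand) encodes MCT4, the exporter of strongly glycolytic and hypoxic cells. It stood at 7.41, 7.65 and 9.25 FPKM with GFP-Rgnef (188 to 247 reads) and at 18.7, 17.4 and 22.1 without (469 to 572 reads). Library 3 was the highest in each group, and the groups were far apart. The difference of -1.16 (SE 0.115, limma adjusted p = 0.00107) was the largest in size of the 37 tested members, was called without each library in turn, and gave a ratio of 2.40-fold in favour of the knockout. Slc16a1, the transporter MCT1, stood at 34.4, 32.1 and 35.2 FPKM with GFP-Rgnef and at 35.1, 39.7 and 32.7 without. These values overlapped (-0.08, 95% interval -0.27 to 0.12, limma adjusted p = 0.638). Together they gave 42.0 ± 2.39 against 55.3 ± 1.68 FPKM (SD, n = 3), and Bsg, the chaperone of both transporters, was at 254 ± 6.22 and 252 ± 5.01 (0.01, limma adjusted p = 0.951).

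Ldha (ENSMUSG00000063229; chromosome 7, 46841475 to 46855627, plus strand), which favours making lactate, stood at 1005, 1030 and 1007 FPKM with GFP-Rgnef and at 1185, 1225 and 1242 without. All GFP-Rgnef libraries were lower, with little spread in either group. The difference was -0.26 (SE 0.054, limma adjusted p = 0.0172), the call was lost without GFP-Rgnef 1, GFP-Rgnef 2 or knockout 2 (adjusted p up to 0.0806), and after chromosome medians were removed the difference was -0.01 (adjusted p = 0.93). Ldhb, the heart-type subunit, stood at 18.0, 25.8 and 24.7 FPKM with GFP-Rgnef and at 18.9, 15.1 and 24.2 without. Its groups overlapped widely (0.23, limma adjusted p = 0.458), and it made 2.20% ± 0.385 and 1.57% ± 0.346 of lactate dehydrogenase FPKM (SD, n = 3).

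No gene of the pyruvate dehydrogenase complex or its kinases among the members was called with all libraries as deposited. Pdha1 was at 129 ± 4.48 and 141 ± 5.62 FPKM (SD, n = 3; -0.13, limma adjusted p = 0.22) and Pdhb at 66.2 ± 2.97 and 57.5 ± 4.24 (0.20, limma adjusted p = 0.123). These encode the 2 subunits of the complex's first enzyme, and their differences had opposite signs with no overlap in either. Dlat, the acetyltransferase core, was at 102 ± 5.27 and 124 ± 10.4 FPKM (SD, n = 3; -0.28, limma adjusted p = 0.0501), also without overlap. Dlat passed the threshold with median-of-ratios scaling, TPM scaling and voom, and without GFP-Rgnef 3 (limma adjusted p of 0.0300 to 0.0498). It did not pass without a filter (limma adjusted p = 0.0877), without trend (0.0845) or without any other 1 library (up to 0.162). Dlat lies on chromosome 9.

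Pdk1, the HIF-responsive kinase that inhibits the complex, stood at 16.1, 17.4 and 22.4 FPKM with GFP-Rgnef and at 22.9, 22.2 and 24.6 without. GFP-Rgnef library 3 reached the knockout range, and the difference of -0.32 was not called (SE 0.118, limma adjusted p = 0.122). Without the libraries numbered 3 it was -0.41 (limma adjusted p = 0.00952). Pdk3 was at 48.1 ± 0.676 and 46.7 ± 3.08 FPKM and Pdk2 at 1.18 ± 0.449 and 1.15 ± 0.314 (SD, n = 3), each with overlap. Pdk4, a kinase of the same family outside the 38 genes, stood at 62.4, 64.9 and 94.2 FPKM with GFP-Rgnef and at 22.6, 22.3 and 37.8 without. It was higher with GFP-Rgnef by 1.41 (SE 0.221, limma adjusted p = 0.00622), with library 3 highest in each group and a call without each library in turn.

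Shares within a family of isozymes were compared over libraries, for 8 shares, with an exact two-sided permutation test whose smallest possible p is 0.1 with 3 against 3 libraries. Slc16a3 made 19.3% ± 1.53 of the FPKM of Slc16a1 and Slc16a3 with GFP-Rgnef and 35.2% ± 4.92 without (SD, n = 3, exact p = 0.1, adjusted over the 8 shares 0.133). Pfkp made 28.2% ± 1.16 of phosphofructokinase FPKM with GFP-Rgnef and 34.2% ± 1.22 without (SD, n = 3, exact p = 0.1). Among the 4 PDK genes, Pdk1 made 13.1% ± 0.382 against 23.7% ± 1.82 and Pdk4 51.7% ± 4.38 against 27.5% ± 5.27 (SD, n = 3, exact p = 0.1 each). In these and in the shares of Slc2a3 (23.4% ± 1.62 against 28.2% ± 1.68) and Eno2 the libraries of the groups did not overlap. Each had an exact permutation p of 0.1 (0.133 adjusted over the 8 shares), so none passed 0.05. Shares are made from the FPKM of genes described above, so they are not separate support. The share of Pdk1 also depends on the level of Pdk4, and that of Slc2a3 on the level of Slc2a1. The FPKM of Slc2a3 itself overlapped between the groups (0.07, limma adjusted p = 0.662). Hk2 made 28.0% ± 0.303 of hexokinase FPKM against 29.9% ± 2.46 (SD, n = 3, exact permutation p = 0.2), and the share of Ldhb overlapped as well (exact p = 0.2).

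**Figure D3:**
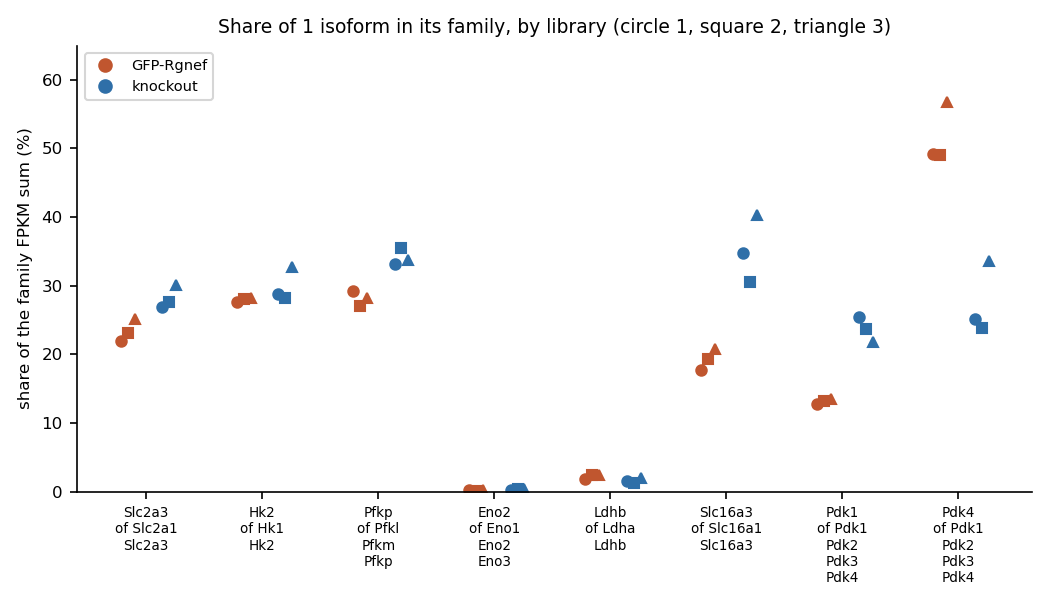
Share of 1 isozyme or transporter gene in the FPKM sum of its family, in percent (y axis), for the 8 families or family members compared; each point is a library. Slc16a3 at 17.7% to 20.8% with GFP-Rgnef lies under 30.5% to 40.3% in the knockout libraries, and Pdk4 lies above.

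The 17 enzyme genes from hexokinase to lactate dehydrogenase among the members summed to 11688 ± 404 FPKM with GFP-Rgnef and 11105 ± 304 without (SD, n = 3, exact two-sided permutation p = 0.3), with overlap. They made 1.73% to 1.86% of all FPKM in the GFP-Rgnef libraries and 1.68% to 1.81% in the knockout libraries. Gapdh and Eno1 weigh most in that sum.

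Tested genes on chromosomes 7 and 9 had negative median differences in these libraries, and 7 members lie there. Position along each chromosome was not examined. The median difference was -0.24 over 819 tested genes of chromosome 7 and -0.28 over 639 of chromosome 9, against 0.04 over the 10042 others. All 7 members there, Gpi1, Aldoa, Ldha and Bnip3 on chromosome 7 and Pfkfb4, Pkm and Dlat on chromosome 9, had negative differences, with a median of -0.23 and 1 call as lower (14.3%, against 32.2% of all genes on these chromosomes). When each chromosome's median deviation was removed from each library, their median was 0.02 and 2 of 7 were negative, by 0.01 each (Ldha and Pfkfb4). On the other chromosomes the 30 tested members had a median of 0.01, with 4 called higher and 4 lower (13.3% each, against 5.96% and 4.53% of all genes elsewhere). After this centring 3 of 37 members were called higher (against 3.37% of all genes) and 4 of 37 lower (against 4.30% of all genes). The lost calls were Gapdh (0.22, limma adjusted p = 0.127) and Ldha. Slc2a1, Hk1, Egln3, Slc16a3, Eno2, P4ha1 and Pfkp stayed called.

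**Figure D4:**
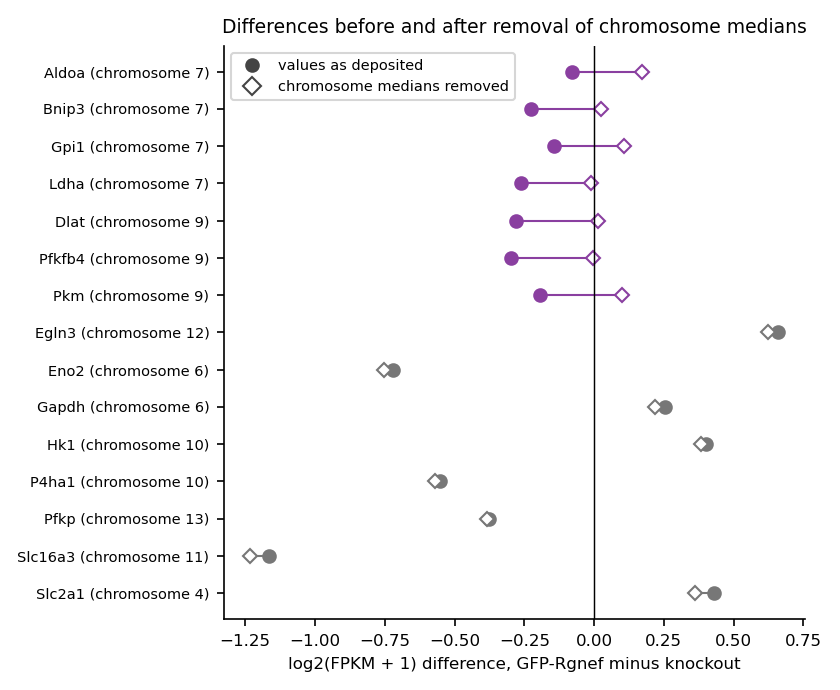
Differences of the 7 members on chromosomes 7 and 9 (purple) and of the 8 called members elsewhere (grey), on the log2(FPKM + 1) scale, as deposited (filled circles) and with chromosome medians removed (open diamonds). The purple genes move from negative values to about 0 or above it, and the grey ones keep their side.

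Hif1a itself, the oxygen-labile subunit of HIF, did not separate the groups. It stood at 52.3, 52.7 and 74.4 FPKM with GFP-Rgnef and at 54.4, 58.4 and 70.8 without. Library 3 was the highest in each group, by more than the groups differed (-0.04, 95% interval -0.39 to 0.30, limma adjusted p = 0.892). HIF is regulated mainly at the level of its protein, which was not measured. Egln1, the main oxygen sensor, was at 28.5 ± 1.62 and 31.7 ± 2.38 FPKM (SD, n = 3; -0.15, limma adjusted p = 0.283), with overlap.

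Egln3 (ENSMUSG00000035105; chromosome 12, 54178981 to 54203860, minus strand), a hydroxylase gene that HIF induces, stood at 3.84, 4.77 and 5.15 FPKM with GFP-Rgnef (174 to 237 reads) and at 3.24, 2.27 and 2.15 without (96 to 155 reads). The groups did not overlap, though GFP-Rgnef library 1 and knockout library 1 lay close to each other. The difference was 0.66 (SE 0.148, limma adjusted p = 0.0243). The call ended when library 2 or library 3 of either group was left out (adjusted p up to 0.0943) and without both libraries numbered 3 (0.51, adjusted p = 0.0530).

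P4ha1 (ENSMUSG00000019916; chromosome 10, 59323296 to 59373304, plus strand), the catalytic subunit that hydroxylates prolines of collagen, stood at 14.6, 14.9 and 14.1 FPKM with GFP-Rgnef and at 20.9, 22.7 and 21.9 without. The groups were well apart, with a small spread in each. It fell by 0.55 with GFP-Rgnef (SE 0.072, limma adjusted p = 0.00324), and the call held without each library in turn.

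Of the other HIF-linked members none was called. Ndrg1, a stress-responsive gene, stood at 16.6, 15.9 and 12.4 FPKM with GFP-Rgnef and at 24.6, 23.6 and 13.8 without. Knockout library 3 fell within the GFP-Rgnef range, so that the difference was -0.41 with all libraries (limma adjusted p = 0.245) and -0.54 without the libraries numbered 3 (adjusted p = 0.00257). Bnip3, which promotes removal of mitochondria, had 6.61, 6.90 and 12.5 FPKM with GFP-Rgnef and 9.27, 10.4 and 10.1 without. Here GFP-Rgnef library 3 was above the whole knockout group, and the difference went from -0.23 (limma adjusted p = 0.523) to -0.48 without the libraries numbered 3 (adjusted p = 0.0119). Ankrd37 rested on 9 to 18 reads per library, its exons overlap those of the far more abundant Ufsp2, and its groups overlapped (-0.10, limma adjusted p = 0.735). Car9, the carbonic anhydrase often used as a hypoxia marker, had 2 to 7 reads per library, at 0.206, 0.221 and 0.474 FPKM with GFP-Rgnef and 0.455, 0.202 and 0.14 without, a level at which a difference was not detectable.

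**Figure D5:**
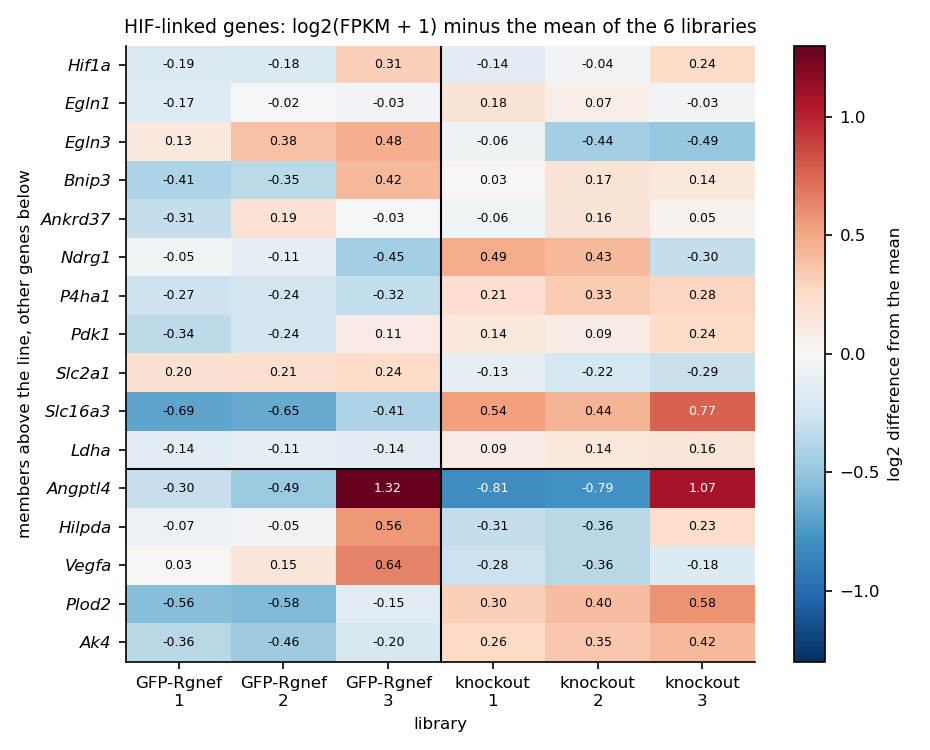
log2(FPKM + 1) of 11 HIF-linked members (above the line) and 5 other hypoxia-responsive genes (below it) in each library, minus the gene's mean over the 6 libraries; red is above the mean and blue below. The 5 other genes are a selection from 29 tested hypoxia-responsive genes beyond the members. Slc16a3, P4ha1 and Slc2a1 split by group. Hif1a, Angptl4 and Hilpda are highest in library 3 of each group, as are Slc16a3, Pdk1, Vegfa, Plod2 and Ak4. All 5 other genes shown thus have this pattern, which 26.0% of all genes tested have, so they do not represent the 29. The called genes Lonp1, Plod1 and Higd1a are not shown and lack it.

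Some members varied with the library number as well as with the group, at shares below or near those of all genes. Library 3 was the highest of its group in both groups for 7 of 37 tested members (18.9%, against 26.0% of all genes), namely Slc2a3, Pfkm, Slc16a3, Pdk1, Pdk3, Dlat and Hif1a. It was the lowest in both for 9 (24.3%, against 22.2%), namely Gpi1, Pfkl, Pfkp, Pfkfb3, Tpi1, Gapdh, Pgk1, Eno1 and Ndrg1. Angptl4, a lipase inhibitor that HIF and PPAR factors induce and no member, had 7.68, 6.64 and 25.7 FPKM with GFP-Rgnef and 5.09, 5.18 and 21.5 without. With both libraries left out, 4 members were called higher (against 9.25% of all genes) and 10 lower (against 11.2% of all genes). Gained were Hk2 as higher and Dlat, Pdk1, Pfkfb2, Bnip3 and Ndrg1 as lower, and Egln3 was lost. What sets these libraries apart was not tested.

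The promoters of the HIF-linked called members, and of Eno2, are printed to show where the ACGTG form of the HIF core motif lies. These genes moved in opposite directions. RefSeq promoter windows (GRCm38.p6, 250 bases before to 50 after a gene's start) were found for 36 of the 38 members, all but Slc2a3 and Ndrg1. Each window below runs 5′ to 3′ on the gene's strand, and capitals mark ACGTG or its reverse complement CACGT. The windows are chr4:119108495-119108794 (plus strand) for Slc2a1, chr12:54203825-54204124 (minus) for Egln3, chr11:120948817-120949116 (plus) for Slc16a3, chr10:59323046-59323345 (plus) for P4ha1, chr7:46845554-46845853 (plus, 1 of 2 windows) for Ldha and chr6:124769624-124769923 (minus) for Eno2.
Slc2a1: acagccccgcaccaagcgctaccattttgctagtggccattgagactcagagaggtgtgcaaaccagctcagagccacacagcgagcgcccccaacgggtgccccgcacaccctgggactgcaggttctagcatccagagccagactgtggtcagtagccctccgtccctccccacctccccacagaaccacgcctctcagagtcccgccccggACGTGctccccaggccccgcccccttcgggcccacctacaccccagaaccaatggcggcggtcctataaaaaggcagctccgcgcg
Egln3: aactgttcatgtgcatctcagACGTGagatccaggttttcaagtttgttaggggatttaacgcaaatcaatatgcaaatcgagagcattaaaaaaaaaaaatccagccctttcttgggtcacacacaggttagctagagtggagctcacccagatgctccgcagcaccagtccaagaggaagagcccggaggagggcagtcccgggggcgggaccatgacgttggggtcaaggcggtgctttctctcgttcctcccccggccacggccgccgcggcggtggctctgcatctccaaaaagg
Slc16a3: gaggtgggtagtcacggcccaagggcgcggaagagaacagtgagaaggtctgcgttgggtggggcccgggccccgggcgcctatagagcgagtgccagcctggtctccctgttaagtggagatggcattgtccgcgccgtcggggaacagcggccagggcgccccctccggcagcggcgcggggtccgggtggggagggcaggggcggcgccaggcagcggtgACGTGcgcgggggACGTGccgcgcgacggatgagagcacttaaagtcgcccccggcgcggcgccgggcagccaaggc
P4ha1: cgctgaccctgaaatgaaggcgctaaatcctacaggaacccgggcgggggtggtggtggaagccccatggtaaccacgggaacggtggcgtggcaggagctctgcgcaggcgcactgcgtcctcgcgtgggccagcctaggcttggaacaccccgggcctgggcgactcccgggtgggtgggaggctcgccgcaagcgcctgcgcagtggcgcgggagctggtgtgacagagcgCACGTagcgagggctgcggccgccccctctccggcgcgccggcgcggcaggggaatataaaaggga
Ldha: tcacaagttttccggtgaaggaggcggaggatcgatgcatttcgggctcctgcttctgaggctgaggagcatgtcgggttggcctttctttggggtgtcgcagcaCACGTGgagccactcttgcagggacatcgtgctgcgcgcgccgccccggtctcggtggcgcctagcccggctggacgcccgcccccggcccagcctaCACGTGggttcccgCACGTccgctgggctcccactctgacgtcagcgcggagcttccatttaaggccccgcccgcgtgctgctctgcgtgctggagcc
Eno2: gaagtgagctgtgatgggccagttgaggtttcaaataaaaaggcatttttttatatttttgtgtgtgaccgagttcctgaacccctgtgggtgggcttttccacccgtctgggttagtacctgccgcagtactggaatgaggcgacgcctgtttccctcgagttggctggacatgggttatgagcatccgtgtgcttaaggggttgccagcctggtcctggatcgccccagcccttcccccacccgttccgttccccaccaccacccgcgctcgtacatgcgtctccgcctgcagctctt

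Slc2a1 and Egln3, called higher, held 1 match each, and of the genes called lower Slc16a3 held 2, P4ha1 1, Ldha 5 and Eno2 0, where CACGTG counts once on each strand. At least 1 match was found in 25 of 36 members with a window (69.4%), against 30.2% of 8791 tested genes with a window and 21.8% of all 27025 genes with one. The members include genes listed for their link to HIF, so the higher share is no separate finding. Windows numbered 52 for the 36 members and 32851 for the 27025 genes, and more windows give more room for a match. By direction it was 4 of 4 members called higher, 3 of 5 called lower and 18 of the other 27. The motif thus occurred in members of either direction. A match is a description of the letters and not a bound site, and its absence from a window says nothing of the factor.

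The other genes of these pathways were 119 genes of the table, of which 88 were tested, and 8 were called higher (9.09%, against 5.34% of all genes) and 9 lower (10.2%, against 8.04%). The same all-gene shares apply to the counts by step that follow. Pdk4, Lonp1, Gpd1, Plod2 and Ak4 were called without each library in turn, and the remaining 12 lost their call without at least 1 library. Among 18 tested genes of lactate and pyruvate use, 3 were higher and 0 lower (6 at an unadjusted p under 0.05, against 28.4% of all genes). These were Pdk4, the pyruvate carboxylase Pcx (8.73 ± 0.164 against 5.64 ± 0.909 FPKM, SD, n = 3; 0.56, limma adjusted p = 0.0151) and the mitochondrial pyruvate carrier subunit Mpc1 (7.60 ± 0.442 against 5.80 ± 0.178; 0.34, limma adjusted p = 0.0366). Mpc1 lost its call whichever library was left out.

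Among 27 tested genes of other sugar steps, 3 were higher and 4 lower. Higher were Gpd1, the cytosolic glycerol phosphate dehydrogenase (5.53 ± 0.62 against 2.80 ± 0.66 FPKM, SD, n = 3; 0.79, limma adjusted p = 0.0102), Pgm1 and Pgam5. Pgm1, a phosphoglucomutase that links glycogen and glucose phosphate, was at 136 ± 3.12 against 109 ± 5.16 FPKM (SD, n = 3; 0.31, limma adjusted p = 0.0145). Pgam5, despite its name, is a mitochondrial protein phosphatase, and it lost its call whichever library was left out (0.28, limma adjusted p = 0.0439). Lower were Gpd1l, Adpgk, Gys1 and Pgm3, which lie on chromosomes 7 or 9, with differences of -0.38 to -0.31 as deposited and -0.13 to -0.02 after centring. Gys1 also lost its call whichever library was left out (limma adjusted p of 0.0553 to 0.0989). Exons of Gys1 and Pgm3 overlap those of the more abundant Ruvbl2 and Dop1a.

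Among 29 tested hypoxia-responsive genes beyond the members, 2 were higher and 4 lower. Lonp1, a mitochondrial protease, was at 64.9 ± 0.60 against 43.6 ± 2.97 FPKM (SD, n = 3; 0.57, limma adjusted p = 0.00274) and Vegfa, the endothelial growth factor, at 30.3 ± 7.37 against 20.1 ± 1.38 (0.55, limma adjusted p = 0.0473). GFP-Rgnef library 3 was the highest for Vegfa, at 38.7 FPKM against 25.0 and 27.3. After centring, Vegfa (limma adjusted p = 0.103), Pgm1 (0.0532), Pgam5 (0.0861) and Mpc1 (0.115) were no longer called. Plod2, a collagen lysyl hydroxylase, was at 17.4 ± 3.22 against 32.1 ± 3.24 FPKM (SD, n = 3; -0.86, limma adjusted p = 0.00533), and on chromosome 9 it kept its call after centring (-0.57, adjusted p = 0.0344). Ak4, a mitochondrial adenylate kinase, was at 5.59 ± 0.603 against 9.56 ± 0.596 FPKM (SD, n = 3; -0.68, limma adjusted p = 0.00481). Plod1, another lysyl hydroxylase, was lower by a difference of -0.43 (limma adjusted p = 0.0429), as was Higd1a on chromosome 9 (-0.33, limma adjusted p = 0.0173; -0.04 after centring).

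Of 14 tested genes of the HIF pathway itself, 0 were higher and 1 lower in limma (2 at an unadjusted p under 0.05, against 28.4% of all genes). The lower gene was Egln2, a hydroxylase on chromosome 7, at 67.0 ± 7.48 against 84.9 ± 6.07 FPKM (SD, n = 3; -0.34, limma adjusted p = 0.0499; -0.09 after centring). Egln2 lost its call whichever library was left out (limma adjusted p of 0.0592 to 0.141). Arnt, the partner of HIF alpha subunits, was at 23.1 ± 0.411 and 23.6 ± 0.894 FPKM, Vhl, which recognises hydroxylated HIF, at 21.3 ± 2.17 and 21.4 ± 0.355, and Epas1, the second alpha subunit, at 3.28 ± 0.879 and 3.12 ± 0.364 (SD, n = 3), all with overlap. On chromosomes 7 and 9, 7 of 11 tested genes of these further lists were lower and 0 higher, beside 32.2% lower and 1.03% higher over all 1458 tested genes there. Elsewhere 2 of 77 (2.60%) were lower and 8 (10.4%) higher, beside 4.53% and 5.96% of all genes elsewhere.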

How the data were processed

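The authors deposited 1 table of FPKM values for 6 libraries, made with poly-T beads and a NEBNext Ultra kit per the labels' protocols. The submitters' processing notes name CASAVA 1.8, TopHat2 2.0.9, DESeq2 and mm10; the tool that made the FPKM, the annotation and strand handling are not given in the sources used here. GENCODE M21 (GRCm38, which is mm10) gave symbols and coordinates for 34490 of 35275 genes. Low values stepped in whole reads: at the implied depths (15898965 to 17977069), 100% of values above 0 were whole within 0.02 of a read, for 15427 of 19655 genes with a length chosen to make them so. Read numbers in the text are these; precision falls with fewer reads.

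The test was limma 3.58.1 (R 4.3.3) with trend on log2(FPKM + 1), mean FPKM of at least 0.5, Benjamini-Hochberg over all genes and a call at adjusted p below 0.05. It was also run on simulated counts, drawn independently at a fixed dispersion without the library and chromosome patterns described above. That run does not show how the test behaves under those patterns. Voom on recovered reads called 574 genes higher and 996 lower. In total 16 alternatives were run: pseudocount, filter, scaling, variance model, recovered reads, replicate block, chromosome centring, each library left out and libraries 3 left out. Plots used Python 3.11.15 and matplotlib 3.10.9. The members and lists were chosen with earlier results of these data known. All 38 members are named; library values are given for those called and for Hif1a, Hk2, Ldhb, Pkm, Slc16a1 and Pdk1; of the other genes, up to 8 called in each direction by smallest p. Ndrg1, Bnip3, Car9, Angptl4, Egln2, Bsg, Arnt, Vhl and Epas1 got values after these were seen. Of the tested genes, 4 members and 11 others have exons overlapping a gene at 10% or more of their level.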

Additional observations from a re-analysis of the deposited data

How the results depend on the processing

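Slc2a1, Slc16a3, P4ha1, Pfkp and Hk1 kept direction and call under the 9 alternatives that use all 6 libraries, and Eno2 did except at a mean FPKM of at least 5, which leaves Eno2 and Egln3 untested. Egln3 and Ldha lost their calls without a filter, Ldha also with centring, and Gapdh in both and with median-of-ratios scaling, TPM scaling and no trend. Apart from the block, Pkm gained a call under the stricter filter, Pkm and Dlat both did with TPM scaling and voom, and so did Dlat with median-of-ratios scaling. Without a filter 394 genes were called higher, with 2 members higher, and 5 other pathway genes higher and 5 lower. With TPM scaling 5 other pathway genes were higher, Tpi1 turned to -0.021 and Pdk2 to -0.00042. With chromosome centring 388 genes were higher and 494 lower, 4 other pathway genes higher and 3 lower, the member median was 0.0072, and Gpi1 (0.11), Aldoa (0.17), Pkm (0.10), Dlat (0.013), Bnip3 (0.024), Tpi1 (-0.029) and Pdk2 (-0.054) changed sign. Without the libraries numbered 3, 1059 genes were higher, 10 members lower and 13 other pathway genes higher.

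Same-numbered libraries correlated at 0.32, -0.02 and 0.55 in their deviations, and GFP-Rgnef 2 correlated best with knockout 1, so the numbers were not taken as pairs. With the replicate block, 1253 genes were higher and 1517 lower, 7 members higher and 9 lower, and 17 other pathway genes higher. The block added the calls of Hk2, Pgam1 and Pdhb as higher and of Dlat, Pdk1, Pkm and Ndrg1 as lower (limma adjusted p of 0.00542 to 0.0384).

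Leaving out 1 library gave 198 to 580 genes higher and 458 to 848 lower, 1 to 3 members higher and 3 to 9 lower, 3 to 6 other pathway genes higher and 2 to 6 lower, and a member median of -0.080 to -0.029. Counts over all genes moved by over 1.5 times without library 1 or library 2 of either group. Other pathway genes higher were 4, 3, 5 and 4 without GFP-Rgnef 1, GFP-Rgnef 2, knockout 1 and knockout 2, and lower ones 2, 4, 3 and 2, and 5 without GFP-Rgnef 3. Uncalled members that changed sign ranged over -0.0053 to 0.14 (Slc2a3), -0.057 to 0.039 (Pfkl), -0.10 to 0.075 (Pfkfb3), -0.077 to 0.25 (Aldoc), -0.029 to 0.033 (Tpi1), -0.14 to 0.14 (Pdk2), -0.012 to 0.074 (Pdk3), -0.21 to 0.064 (Hif1a) and -0.22 to 0.030 (Ankrd37). The causes were not tested. Members with under 30 reads per library, such as Pfkfb4, Ankrd37 and Car9, are limited by depth.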
